A study of Homo sapiens with 6 samples.

Results

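The genes described here encode the enzymes and transporters through which a liver cell modifies, conjugates and moves drugs, bile acids and steroids. They were taken by symbol: all entries of the array tables starting with CYP1, CYP2, CYP3, CYP4, UGT1A, UGT2, SULT1, SULT2, GSTA, GSTM, GSTP, ABCB, ABCC, ABCG or SLCO. Of 34690 symbols on the arrays, 135 met this rule, and 75 of them were detected (detection p below 0.05) on 2 or more of the 6 arrays. The rule for CYP goes by letters, so that 7 of the 75 were CYP genes outside families 1 to 4, such as CYP26B1 and CYP27A1. Names were current for 132 of the 135 symbols, and 3 were older names of 1 gene each.

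The RNA bears the label SNU761, the name of an established hepatocellular carcinoma line, and was hybridised to Illumina Expression BeadChips. The sorafenib group held 3 arrays from cells given sorafenib, written by the labels as 3 mM (a unit that is uncertain), for 24 h, and the control group held 3 arrays from cells given the vehicle DMSO for 24 h. Sorafenib is a multikinase inhibitor used against hepatocellular carcinoma. The arrays of both groups were numbered 1 to 3, and a pair below joins the sorafenib array of 1 number to the control array of that number. All 6 arrays carry the label of this 1 cell line, and the labels do not say whether the numbers were separate cultures. The p-values of the sorafenib comparison therefore measure the spread between these samples, which may be technical. Those of the comparison between numbers measure only the spread left after number and treatment.

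In the liver, CYP enzymes of families 1 to 4 oxidise drugs, fatty acids and eicosanoids (phase I), and transferases then attach glucuronic acid (UGT), sulfate (SULT) or glutathione (GST) to make products that are easier to excrete (phase II). SLCO genes encode uptake transporters of the cell membrane, while many ABCB, ABCC and ABCG genes encode pumps that export drugs, bile salts and conjugates. Expression of these genes is known to be set largely by liver transcription factors and by sensors of foreign compounds such as AHR.

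Promoters are shown for 6 members, chosen by the size of their differences: UGT1A6 and UGT2B7, and GSTP1 and SULT2A1, which had the 2 widest differences between replicate numbers in each direction, and CYP26B1 and UGT1A1, which had the widest mean differences between sorafenib and control on the negative side. SULT2A1 and UGT1A1 were not detected on number 3 and passed the detection filter through the other numbers alone. Their differences between numbers carry no weight, and the UGT1A1 mean rests in part on undetected signals. Each runs from 250 bases before to 50 bases after the start of the gene in RefSeq (GRCh38.p14), on the gene's own strand. UGT1A6 lies at chr2:233691452-233691751 (plus strand) and UGT1A1 at chr2:233760020-233760319 (plus strand), in 1 gene cluster with separate first exons. UGT2B7 lies at chr4:69096224-69096523 (plus), SULT2A1 at chr19:47886266-47886565 (minus), GSTP1 at chr11:67583562-67583861 (plus) and CYP26B1 at chr2:72147813-72148112 (minus). Capitals mark the matches to 5 motifs, each searched on both strands of every promoter. The box of the TATA type was searched as TATAAA. The core of the element bound by the liver factor HNF1 was searched as GTTAAT. The box rich in G and C that is bound by Sp1 was searched as GGGCGG. The site of the factor AP-1 was searched as TGACTCA. The core of the dioxin response element, which AHR binds, was searched as GCGTG.
UGT1A6: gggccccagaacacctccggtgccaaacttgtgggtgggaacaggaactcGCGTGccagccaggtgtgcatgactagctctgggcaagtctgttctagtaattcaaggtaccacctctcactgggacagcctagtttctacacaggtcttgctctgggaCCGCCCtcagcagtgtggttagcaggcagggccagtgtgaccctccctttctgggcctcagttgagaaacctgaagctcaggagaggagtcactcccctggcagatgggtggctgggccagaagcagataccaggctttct
UGT1A1: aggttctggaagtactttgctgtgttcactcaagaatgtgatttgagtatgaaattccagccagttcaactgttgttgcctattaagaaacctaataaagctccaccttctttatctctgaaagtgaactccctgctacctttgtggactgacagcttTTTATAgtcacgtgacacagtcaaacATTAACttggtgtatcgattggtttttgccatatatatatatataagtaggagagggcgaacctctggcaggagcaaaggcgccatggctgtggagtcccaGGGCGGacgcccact
UGT2B7: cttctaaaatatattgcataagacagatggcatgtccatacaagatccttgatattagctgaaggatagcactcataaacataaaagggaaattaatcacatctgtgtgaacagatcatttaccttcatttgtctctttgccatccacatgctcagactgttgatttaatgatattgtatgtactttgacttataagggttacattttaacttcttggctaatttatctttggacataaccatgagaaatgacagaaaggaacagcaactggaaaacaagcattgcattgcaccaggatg
SULT2A1: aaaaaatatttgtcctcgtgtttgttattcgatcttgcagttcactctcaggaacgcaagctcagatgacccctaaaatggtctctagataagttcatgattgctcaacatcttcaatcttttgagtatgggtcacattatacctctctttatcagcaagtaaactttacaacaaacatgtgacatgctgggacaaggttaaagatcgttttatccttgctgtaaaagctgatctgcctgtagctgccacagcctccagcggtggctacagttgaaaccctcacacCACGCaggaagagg
GSTP1: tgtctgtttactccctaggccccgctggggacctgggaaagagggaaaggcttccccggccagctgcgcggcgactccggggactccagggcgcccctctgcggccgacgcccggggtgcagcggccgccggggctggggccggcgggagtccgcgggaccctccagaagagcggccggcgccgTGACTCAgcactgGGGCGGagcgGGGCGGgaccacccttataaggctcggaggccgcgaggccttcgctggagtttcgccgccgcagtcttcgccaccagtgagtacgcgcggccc
CYP26B1: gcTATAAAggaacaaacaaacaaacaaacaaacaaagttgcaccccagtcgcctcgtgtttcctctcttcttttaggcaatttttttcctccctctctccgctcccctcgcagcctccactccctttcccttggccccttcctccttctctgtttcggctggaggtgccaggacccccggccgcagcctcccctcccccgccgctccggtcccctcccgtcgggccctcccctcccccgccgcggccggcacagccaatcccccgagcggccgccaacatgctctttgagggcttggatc

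The GSTP1 promoter held 36 CG dinucleotides, against a median of 14 (quartiles 3 and 28) over 27305 RefSeq promoters of the same length. It carried 1 AP-1 site, which 4.92% of all promoters held, and 2 Sp1 GC boxes, a motif held by 44.6%. The CYP26B1 promoter had 19 CG dinucleotides and 1 TATA box, a motif held by 12% of promoters. Both UGT1A1 and SULT2A1 had 6 CG dinucleotides. UGT1A1 carried a TATA box, an HNF1 core (6.89% of promoters) and an Sp1 GC box, and SULT2A1 carried 1 dioxin response element core (36.3% of promoters), in reverse orientation. UGT1A6 had 4 CG dinucleotides, 1 dioxin response element core and 1 Sp1 GC box. UGT2B7 had 0 CG dinucleotides and none of the 5 motifs in this window. Promoters were matched for 57 of the 75 detected members. Of these, the 22 that were higher on the arrays numbered 3 (results follow) had a median of 4.5 CG dinucleotides, and the 23 that were lower there had a median of 6. In those 22 and those 23 promoters, in that order, a TATA box was found in 6 and 5, an Sp1 GC box in 10 and 9, a dioxin response element core in 8 and 4, an HNF1 core in 0 and 4, and an AP-1 site in 0 and 1, with no test of these counts. Both sets include members detected on 1 side only, whose direction the detection filter favours. Among them were UGT2B10 and UGT2A3 in the first set and SULT2A1, UGT1A1 and SLCO1A2 in the second. The counts therefore describe the sets and are not a contrast between them. These matches describe the letters in a window and are not evidence of binding.

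On each array 46 to 65 members were detected, out of 13195 to 15227 symbols in all, and each array's median signal lay between 134 and 171 intensity units. Values below are log2 signals after background correction and quantile normalization, and a difference is given on the log2 scale, so that 1 is a doubling. Signals of different probes are not set against each other. The 2 arrays numbered 3 stood apart from the other 4 in the members' levels. Over the 75 members, Pearson's r between the sorafenib and the control array of 1 number was 0.962 to 0.975, and r between arrays numbered 1 and 2 was 0.929 to 0.964. Between an array numbered 3 and one numbered 1 or 2 it was 0.164 to 0.227, compared with 0.791 to 0.829 over all 16870 symbols tested. These points share arrays and probes, and r is given as a description. The set includes members detected on 1 side only, in which the detection filter favours a difference between numbers. The replicate number held 95.8% of the members' sum of squares around their means and the treatment 2.36%; over all genes tested the shares were 89.0% and 6.27%.

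Markers of cell type also differed by number. On the arrays numbered 3, 7 of 12 hepatocyte and hepatocellular carcinoma markers were detected on each array, against 11 or 12 on the others, and their summed level was 35571 and 39139 on number 3, against 108491 to 204652 on numbers 1 and 2. APOA1, APOA2, TTR and GPC3 were at background on number 3 only, while ALB stood at 14.05 and 14.43 on the sorafenib and control arrays numbered 3, against 8.98 to 9.89 on the others. The 9 fibroblast and stellate cell markers summed to 9589 and 11021 on number 3, against 669 to 1113. The 8 leukocyte markers summed to 25435 and 19150 on number 3, against 1607 to 2358, while the defining leukocyte markers PTPRC and CD3E were not detected. In bulk RNA, fewer cells of a type and less RNA per cell cannot be told apart. The part of these markers in the results below was not tested, and what the number marks (a culture, a day or a chip) is not given in the sources used here. Whether the arrays numbered 3 hold RNA of the labelled cell line was not tested, and every difference between numbers below is to be read with that limit. Each sorafenib result is therefore given pair by pair.

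**Figure D1:**
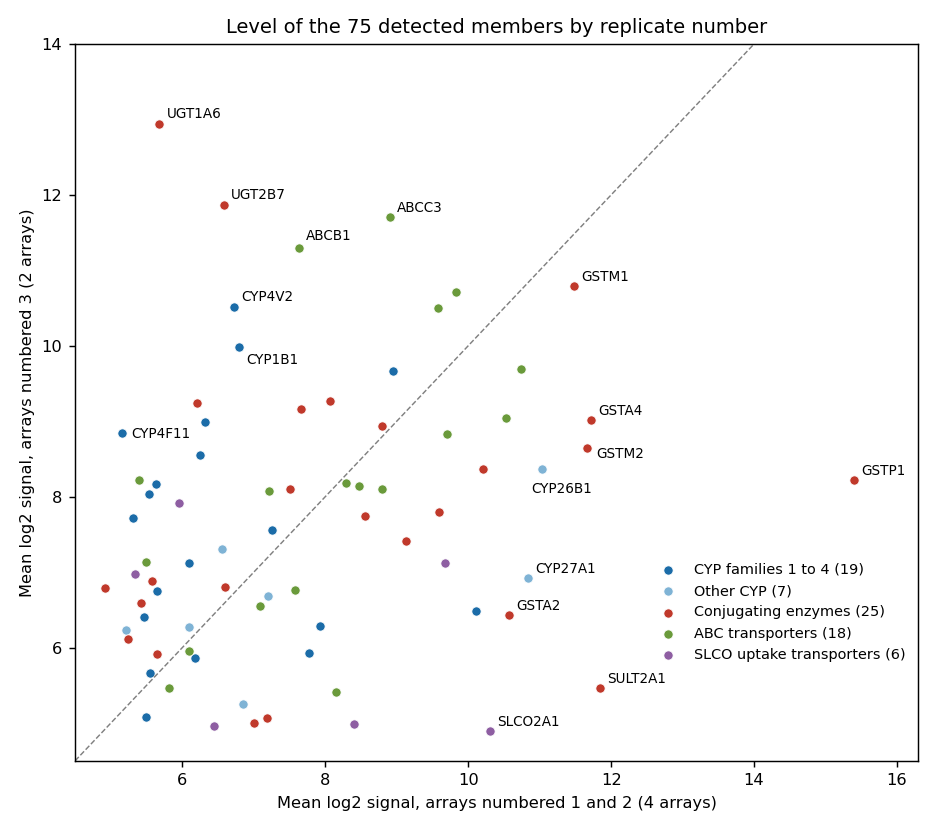
Mean log2 signal of each of the 75 detected members on the 2 arrays numbered 3 (vertical axis) against its mean on the 4 arrays numbered 1 and 2 (horizontal axis); each point is 1 gene, coloured by class, and the dashed line marks equal levels. UGT1A6 and UGT2B7 lie far above the line and GSTP1, SULT2A1 and SLCO2A1 far below it.

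The first comparison set the level on the arrays numbered 3 against the mean of numbers 1 and 2, with treatment as a term in the fit (limma, Benjamini-Hochberg over 16870 symbols, 2 against 4 arrays). Its error term was how far the difference between sorafenib and control varied between numbers. Number 3 is a single unit of 2 differently treated arrays. These p-values therefore do not measure how levels vary between replicate samples. Of the 75 members, 31 were higher on number 3 and 28 were lower at an adjusted p under 0.05, that is 41.3% and 37.3%, where 24.2% of all symbols tested were higher and 27.5% lower. The members' median difference was 0.14 and that of all genes was -0.00018. The median size of the difference, regardless of direction, was 1.60 in members and 0.59 in all genes, and a difference of at least 2-fold was seen in 64.0% of members and 31.0% of all genes. Some members were detected on only one side and so passed the detection filter through that side alone: 8 were detected only on number 3, where 3.25% of all symbols were so detected, and 11 only on numbers 1 and 2 (15.3%). The filter favours a difference in these 19, and their calls are given no weight. Of the 56 members detected on both sides, 23 were higher on number 3 (41.1%) and 20 were lower (35.7%), where the shares over all 13748 such symbols were 25.6% and 23.0%. Among the 37 members detected on all 6 arrays, 11 were higher (29.7%) and 17 lower (45.9%) on number 3, where the shares over all 9817 such genes were 25.5% and 27.3%. The sizes of 1.60 and 64.0% above include the members detected on only one side. In the 37 members the median size was 1.04, against 0.60 in the 9817 genes. A difference of at least 2-fold was seen in 51.4% and 28.9% of these. A fit over all 3 numbers at once (moderated F) called 58 members, 77.3%, where it called 54.2% of all genes.

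Among the glucuronosyltransferases, UGT1A6, which conjugates small planar phenols, was the member furthest above the other numbers. Its signal was 12.76 and 13.13 on the sorafenib and control arrays numbered 3, against 5.89 and 6.46 on those numbered 1 and 5.07 and 5.30 on those numbered 2. Only the 2 arrays numbered 1 among those 4 had a detected signal. The fitted difference was 7.27 (SE 0.17, adjusted p = 1.66e-06, limma), and with each undetected signal set to that array's lowest detected signal UGT1A6 was at least 117-fold higher on number 3. UGT2B7, which conjugates morphine and many other drugs, had 11.71 and 12.02 on the sorafenib and control arrays numbered 3, against 7.05 and 6.92 on number 1 and 5.72 and 6.64 on number 2. Its difference was 5.29 (SE 0.24, 39.1-fold, adjusted p = 9.8e-06, limma). UGT2B11 had 9.25 and 9.22 on number 3, against values between 5.96 and 6.38 on the other 4 arrays, a difference of 3.04 (SE 0.18).

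All 5 detected UGT2 genes, of 10 on the array, were higher on number 3, where 24.2% of all symbols tested were higher. In this count UGT2B10 and UGT2A3 carry no weight, since they passed the filter through number 3 alone. UGT2B4 differed by 1.32 (SE 0.33, adjusted p = 0.0155, limma). UGT2B10 and UGT2A3 were detected only on the arrays numbered 3, where they were at least 1.88-fold and at least 1.64-fold higher. Such a bound sets the mean of the bright arrays against the lowest detected signal of each dim array, or the gene's own signal where that was higher. UGT1A1, the enzyme that conjugates bilirubin, stood on the opposite side. It had 5.19 and 4.95 on the sorafenib and control arrays numbered 3, against 7.17 and 8.20 on number 1 and 5.93 and 7.46 on number 2. It was not detected on number 3 and was detected on 3 of the other 4 arrays, so its signal was at least 2.32-fold lower on number 3. UGT1A3 and UGT1A7 differed by 0.21 and 0.26 and did not pass the test. UGT1A transcripts share all exons but the first, and UGT2B genes are close copies, so that probes may not separate them; probe sequences were not used here.

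Among the glutathione transferases, GSTP1, the pi class enzyme, had the widest difference of any member in the other direction. Its signal was 8.32 and 8.11 on the sorafenib and control arrays numbered 3, against 15.42 and 15.42 on number 1 and 15.39 and 15.39 on number 2. Before normalization this was 424 and 405 intensity units on number 3, against 43571 to 47252 on the other arrays. The 6 signals fall into 2 tight sets that do not overlap, and the difference was -7.19 (SE 0.17), or 146-fold lower on number 3 (adjusted p = 1.66e-06, limma). GSTP1 was detected on all 6 arrays.

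All 4 detected alpha class genes were lower on number 3, where 27.5% of all symbols tested were lower. In this count GSTA5 carries no weight, since it passed the filter through the other numbers alone. GSTA2 had 6.24 and 6.61 on the sorafenib and control arrays numbered 3, against 10.73 and 10.67 on number 1 and 10.23 and 10.63 on number 2, a difference of -4.14 (SE 0.19, 17.6-fold). GSTA4, which conjugates the lipid peroxidation product 4-hydroxynonenal, had 8.58 and 9.44 on number 3 and between 11.58 and 11.82 on the other arrays, a difference of -2.71 (SE 0.23). GSTA1 differed by -1.80 (SE 0.21), and GSTA5, not detected on number 3 and detected on 3 of the other 4 arrays, was at least 2.04-fold lower. The mu class was split. GSTM2 differed by -3.01 (SE 0.21), with 8.96 and 8.34 on its sorafenib and control arrays against 11.62 to 11.77 on the others, and GSTM1 differed by -0.69 (SE 0.18). GSTM4 and GSTM3 were higher by 1.50 (SE 0.17) and 1.20 (SE 0.18). Within the alpha and mu classes, sequences are close enough that signals may be shared between genes.

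Among sulfotransferases, SULT2A1, which sulfates dehydroepiandrosterone and bile acids, was at background on number 3. It had 5.22 and 5.70 on the sorafenib and control arrays numbered 3, where it was not detected, against 13.03 and 11.86 on number 1 and 11.50 and 10.99 on number 2, so it was at least 58.6-fold lower on number 3. SULT1A2, SULT1A3 and SULT1A4 were lower, with differences of -1.71, -0.80 and -1.84, and the last of these is a near-identical copy of SULT1A3. SULT1B1 was detected only on number 3 (at least 1.18-fold higher), and SULT1C2 and SULT1C4 did not pass the test, with differences of 0.59 and 0.14.

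**Figure D2:**
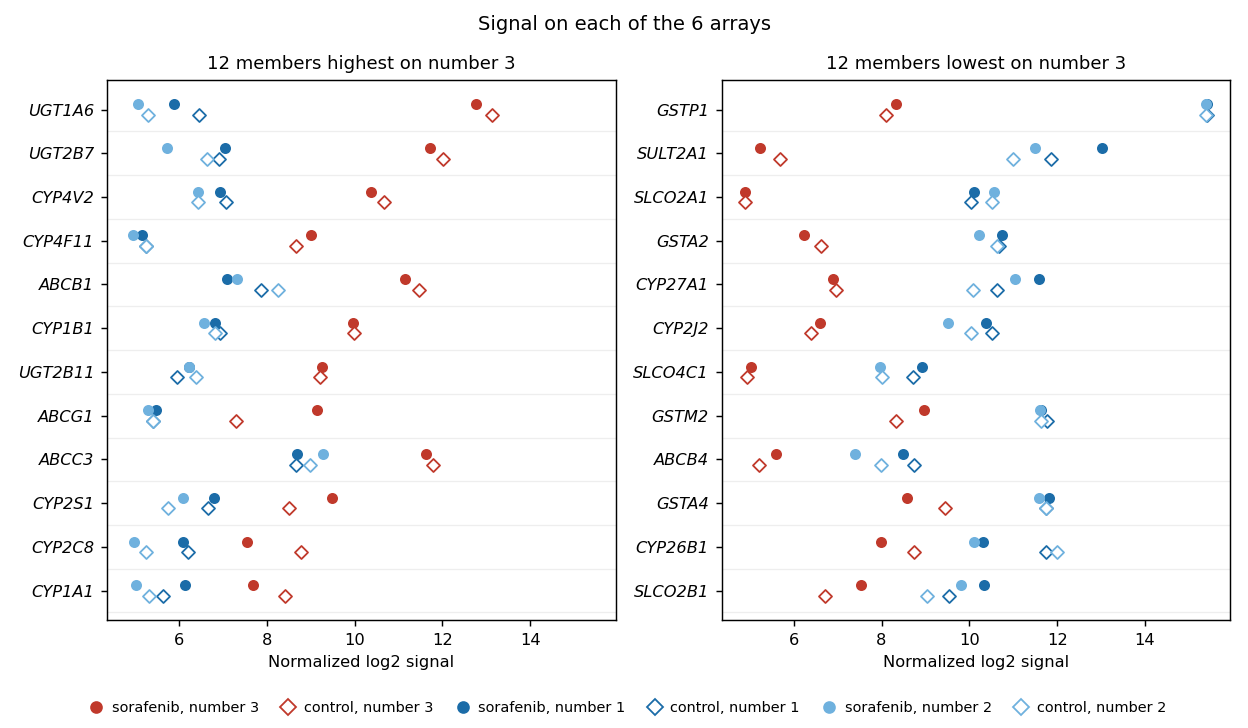
Normalized log2 signal (horizontal axis) of the 12 members with the largest positive and the 12 with the largest negative difference between number 3 and numbers 1 and 2, on each of the 6 arrays; filled circles are sorafenib and open diamonds control arrays. In all 24 members both signals of number 3 (red) lie outside the range of the other 4 arrays.

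Of the CYP genes of families 1 to 4, 19 of 38 were detected, where 16870 of all 34690 symbols were. Of the 19, 12 were higher on number 3 (63.2%) and 3 were lower (15.8%), where 24.2% of all symbols tested were higher and 27.5% lower. The 12 include CYP4F11 and CYP4B1, which passed the filter through number 3 alone and carry no weight. The largest positive difference was that of CYP4V2, a fatty acid hydroxylase, with 10.37 and 10.66 on the sorafenib and control arrays numbered 3, against 6.94 and 7.07 on number 1 and 6.43 and 6.43 on number 2 (difference 3.80, SE 0.17, adjusted p = 9.3e-06, limma). CYP1B1 and CYP1A1, which oxidise polycyclic aromatic hydrocarbons and are known targets of AHR, were both higher. CYP1B1 had 9.97 and 9.98 on number 3, against 6.56 to 6.93 on the other arrays, a difference of 3.19 (SE 0.17). CYP1A1 had 7.68 and 8.41 on number 3, against 5.03 to 6.13, a fitted difference of 2.51 (SE 0.26), with 1 of those 4 arrays detected. AHR itself, a gene outside the members, differed by 1.53 (adjusted p = 0.000836, limma), with 12.34 and 11.97 on the sorafenib and control arrays numbered 3, against 10.44 to 10.94 on the others. Other AHR-related genes of the lists did not follow. ARNT and TIPARP differed by 0.39 and 0.46 and did not pass the test, AHRR was not detected on any array, and NQO1 differed by -2.68. A part of AHR in these levels was not tested.

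CYP2C8, which oxidises drugs such as paclitaxel, and CYP2C18 were higher on number 3, by 2.55 (2 of the 4 other arrays detected) and 2.31 (3 of 4). CYP2S1, detected on 2 of the 4 other arrays, differed by 2.67 (SE 0.22), with 9.48 and 8.50 on the sorafenib and control arrays numbered 3, against 6.79 and 6.66 on number 1 and 6.09 and 5.76 on number 2. CYP4F11 and CYP4B1 were detected only on number 3 and were at least 7.82-fold and at least 3.57-fold higher there. The 3 genes that were lower included CYP2J2, which makes epoxides of arachidonic acid: it had 6.59 and 6.38 on number 3, against 9.52 to 10.51 on the others (difference -3.62, SE 0.20). CYP4F3, which inactivates leukotriene B4, and CYP4F12 were lower, with differences of -1.85 and -1.65. Of the CYP3A genes, CYP3A5 and CYP3A7 differed by 0.31 and -0.32 and did not pass the test.

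Other CYP genes taken by the letters of their names act on sterols and retinoids. On number 3, 4 of 7 were lower, where 27.5% of all symbols tested were lower. The 4 include CYP39A1, which passed the filter through the other numbers alone and carries no weight. CYP27A1, which starts the alternative route of bile acid synthesis, had 6.89 and 6.96 on the sorafenib and control arrays numbered 3, against 11.59 and 10.62 on number 1 and 11.03 and 10.09 on number 2 (difference -3.91, SE 0.26). CYP26B1, which degrades retinoic acid, differed by -2.67 (SE 0.25). CYP39A1, which hydroxylates oxysterols, was detected on all 4 arrays numbered 1 and 2 and on 0 of those numbered 3, at least 1.84-fold lower. CYP11A1 differed by -0.51 (adjusted p = 0.0403, limma), and CYP21A2 was detected only on number 3.

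Among export pumps, ABCB1 (P-glycoprotein, a multidrug exporter) had 11.14 and 11.47 on the sorafenib and control arrays numbered 3, against 7.10 and 7.86 on number 1 and 7.32 and 8.25 on number 2. Detected on 3 of those 4 arrays, it was 12.7-fold higher on number 3 (difference 3.67, SE 0.19, adjusted p = 1.78e-05, limma). ABCB4, its close relative, moves phosphatidylcholine into bile; it was detected on all 4 arrays numbered 1 and 2 and on 0 numbered 3 and was at least 4.54-fold lower. ABCC3, a conjugate exporter of the basolateral membrane, had 11.62 and 11.78 on number 3, against 8.67 to 9.27 on the others (difference 2.80, SE 0.18). ABCC2, the canalicular conjugate exporter, differed by -0.87 (SE 0.26, adjusted p = 0.0294, limma).

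ABCC1, ABCC4 and ABCC10 were higher by 1.64, 0.92 and 0.86. ABCB10, of the mitochondrial inner membrane, and ABCB6 were lower, with differences of -1.49 and -1.04. ABCG1, which exports cholesterol, was detected only on number 3 (at least 5.08-fold higher), with 9.15 on the sorafenib and 7.30 on the control array.

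Of 6 uptake transporters of the SLCO family, 4 were detected on only one side (SLCO2A1, SLCO4C1, SLCO1A2 and SLCO3A1), and the 2 detected on both sides went opposite ways. Over all symbols tested, 3.25% were detected only on number 3 and 15.3% only on numbers 1 and 2. SLCO2A1, the prostaglandin transporter, had 4.88 and 4.90 on the sorafenib and control arrays numbered 3, where it was not detected, against 10.09 and 10.04 on number 1 and 10.56 and 10.51 on number 2, at least 20.1-fold lower on number 3. SLCO4C1 and SLCO1A2 were at least 5.38-fold and at least 1.39-fold lower. SLCO2B1, which takes up steroid sulfates and statins, differed by -2.55 (SE 0.16). SLCO4A1 was higher by 1.97 (SE 0.19), and SLCO3A1, detected only on number 3, was at least 2.15-fold higher.

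**Figure D3:**
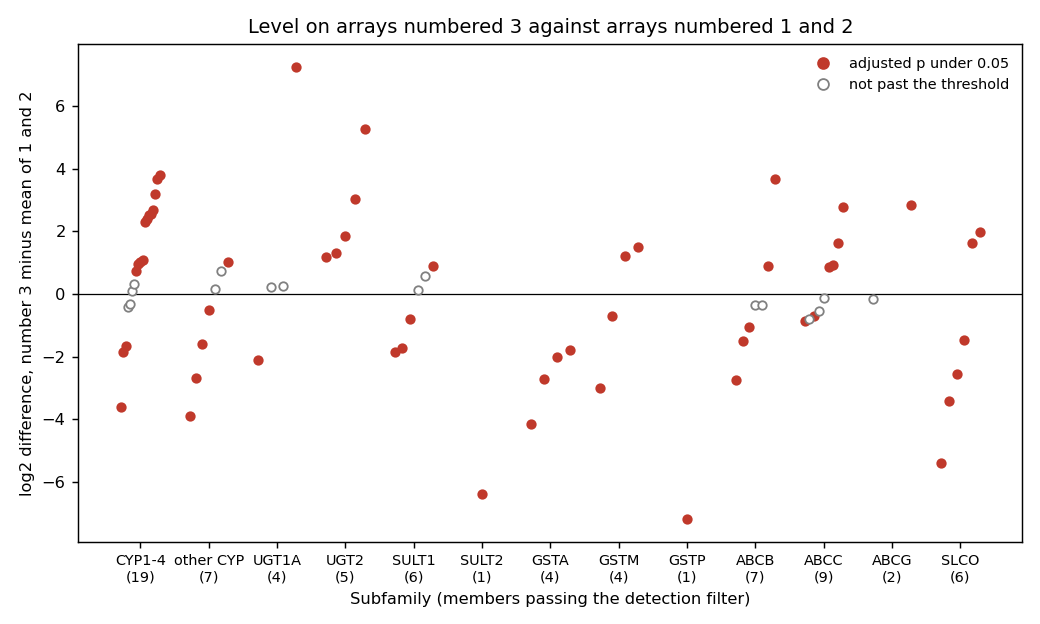
Log2 difference between the mean of the arrays numbered 3 and that of numbers 1 and 2 (vertical axis) for every detected member, by subfamily, with the number of members in brackets; filled points had an adjusted p under 0.05 and open points did not. All 5 UGT2 genes lie above 0 and all 4 GSTA genes below it, but UGT2B10, UGT2A3 and GSTA5 passed the detection filter through 1 side alone.

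When number 1 or number 2 was left out, 28 to 31 members were higher on number 3 and 21 to 28 were lower. With the background taken from all symbols, including those whose detection p was combined over probes, 17 members were higher on number 3 and 17 lower. CYP1A1, CYP2C8, CYP2S1, ABCG1, CYP26B1, CYP27A1 and SLCO2B1, all named above, were then no longer past the threshold, and their direction was kept. The sizes shrank as well: GSTP1 differed by -6.79, UGT1A6 by 4.36, UGT2B7 by 2.99 and SULT2A1 by -2.96. SLCO2A1 then differed by -1.11, UGT2B11 by 0.42, CYP4F11 by 0.34, ABCG1 by 0.26, SLCO4C1 by -0.27 and ABCB4 by -0.21. The folds and bounds given above therefore hold only for the background taken from single-probe symbols.

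Other genes of the same pathways were read from lists. Over all symbols tested, 24.2% were higher on number 3 and 27.5% lower, and each list includes genes detected on 1 side only. Of 21 regulators, 16 were tested, 3 were higher on number 3 (18.8%) and 7 lower (43.8%). FOXA3, FOXA1 and CEBPA, liver transcription factors, were lower, with differences of -4.00, -3.07 and -2.67, and PPARGC1A, a coactivator, was higher by 3.92. NR1I2 and NR1I3, which encode the drug sensors PXR and CAR, were not detected on any array. Of 29 other phase I enzymes tested, 9 were higher (31.0%) and 14 lower (48.3%). AKR1C3, a ketosteroid reductase, had 14.19 and 14.15 on the sorafenib and control arrays numbered 3, against 6.48 to 8.68 on the others. NQO1, a quinone reductase, differed by -2.68. Of 16 other phase II enzymes, 5 were higher and 4 lower, with NNMT (nicotinamide methylation) higher by 3.34. Of 19 further transporters, 11 were higher (57.9%) and 5 lower (26.3%). SLC47A1, the drug and proton antiporter MATE1, was detected on all 4 arrays numbered 1 and 2 and on 0 numbered 3.

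Numbers 1 and 2, which were close to each other, were compared in the same fit. On number 2, 1 member was higher than on number 1 and 8 were lower, where 6.63% of all symbols were higher and 4.73% lower. The median size of the difference was 0.42 in members and 0.34 in all genes. GSTA5 was the gene that was higher, with 8.08 and 8.15 on the sorafenib and control arrays numbered 2, against 6.07 and 5.71 on number 1 (difference 2.22, SE 0.21, adjusted p = 0.00219, limma). Its close relatives GSTA1 and GSTA2 differed by -0.36 and -0.27, short of the threshold. CYP4F12 had 7.09 and 6.65 on number 2, against 9.52 and 8.47 on number 1 (difference -2.13, SE 0.24), and CYP4F3 differed by -1.12 (SE 0.24). SULT1C2 and SULT1A4 were lower on number 2, with differences of -1.88 (SE 0.30) and -0.89. SLCO1A2 and UGT1A6 were detected on both arrays numbered 1 and on neither numbered 2, where they were at least 2.38-fold and at least 1.15-fold lower. SLCO4C1 was also lower on number 2, with a difference of -0.84 (SE 0.20, adjusted p = 0.0419, limma). This split depended on the scaling: when arrays were scaled by their median in place of quantiles, all genes shifted by a median of -0.58, and 1 member was higher and 42 were lower.

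The main question of the series, which genes differ after sorafenib, gave no call among the members in the fit as planned. That fit, with the group alone, called 0 of 75 members and 0% of all symbols (limma, adjusted p under 0.05), with 1 member and 1.95% of all symbols at an unadjusted p under 0.05. The gap between numbers, which held 89.0% of the sum of squares over all genes tested, enters the error of that fit. The SE of GSTP1 was 2.74, for example. The fit could therefore call little, and its lack of calls does not show that sorafenib left the members unchanged. With the replicate number as a block the comparison again called 0 of 75 and 0% of symbols, with 14 members (18.7%) and 17.6% of all symbols at an unadjusted p under 0.05. Within pairs, 14 members were higher with sorafenib in all 3 pairs and 16 were lower, 18.7% and 21.3% of members, where the shares over all symbols were 20.6% and 21.4%. The members' median difference between sorafenib and control was 0.04, and within pairs 1, 2 and 3 it was 0.06, -0.03 and -0.01; the median size was 0.23 in members and 0.21 in all genes. Sorafenib and control signals did not overlap for 3 members: ABCB9 and ABCG4 were above (3.12% of all symbols) and ABCC5 below (3.07%).

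CYP26B1 had the widest mean difference of the members. Its signal was 10.31, 10.09 and 7.98 on the sorafenib arrays numbered 1, 2 and 3, against 11.75, 11.99 and 8.75 on the control arrays. Both groups span a wide range and overlap, since the arrays numbered 3 are low in each, but the sorafenib array was lower in 3 of 3 pairs. The differences were -1.44, -1.90 and -0.77, a mean of -1.37 ± 0.57 (SD, n = 3 pairs) or 2.58-fold. The adjusted p was 0.106 with the replicate block (limma), 0.0572 with the block and without the arrays numbered 3, and 0.0489 in the paired trended fit, which adds to the block a trend of the variance with the level and robust estimation. That last fit called CYP26B1 alone of the members, and 0.593% of all symbols.

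After CYP26B1, the members with 1 sign in all 3 pairs and the widest negative means were ABCB1 and GSTM3; UGT1A1, whose pairs differ in sign, is given further on. ABCB1 had 7.10, 7.32 and 11.14 on the sorafenib arrays numbered 1, 2 and 3, against 7.86, 8.25 and 11.47 on the control arrays, a difference of -0.67 ± 0.31 (SD, n = 3 pairs) with adjusted p = 0.161 under the replicate block (limma). GSTM3 had 7.44, 7.91 and 9.06 on the sorafenib arrays, against 8.24, 8.68 and 9.48 on the control arrays, a difference of -0.66 ± 0.22 (adjusted p = 0.148, limma with the block, n = 3 pairs). In both genes every pair had a difference of -0.33 or below, and neither passed the test. CYP2C8, CYP2C18, ABCC5, UGT1A6, ABCB10, SLCO4A1 and the pseudogene CYP2D7P1 were lower in all 3 pairs, with mean differences from -0.54 to -0.25. In 4 of these 7 the mean was carried by number 3. The differences on numbers 1, 2 and 3 were -0.11, -0.28 and -1.23 in CYP2C8 and -0.01, -0.12 and -0.66 in ABCB10. They were -0.16, -0.04 and -0.57 in SLCO4A1 and -0.01, -0.08 and -0.67 in CYP2D7P1. Without number 3 the mean was -0.19 in CYP2C8, -0.07 in ABCB10, -0.10 in SLCO4A1 and -0.05 in CYP2D7P1. CYP2C8, UGT1A6, ABCC5 and CYP2D7P1 were not detected on either array numbered 2, and ABCC5 was also not detected on number 3. In CYP2C8, UGT1A6 and CYP2D7P1 the sign in pair 2 rests on undetected signals. ABCC5 had 7.94 to 8.48 on the arrays numbered 2 and 3, above the lowest detected signals of single-probe symbols there (5.91 to 6.04). Its detection p-values were not those of a single probe.

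On the positive side the widest mean difference was that of ABCC6P1, a pseudogene copy of ABCC6. Its signal was 9.25, 9.37 and 8.45 on the sorafenib arrays numbered 1, 2 and 3, against 8.52, 8.03 and 7.75 on the control arrays. The difference was 0.93 ± 0.36 (SD, n = 3 pairs), with adjusted p = 0.121 under the replicate block and 0.0843 in the paired trended fit (limma). ABCC6 itself differed by 0.39 ± 0.39 in the same direction in every pair, and the pseudogene ABCC6P2 by 0.11 ± 0.75 with pairs of both signs. The 3 are near-identical in part, so that their signals may not be separate.

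SLCO2B1 had the most even difference over the pairs of the named members. It had 10.33, 9.80 and 7.53 on the sorafenib arrays numbered 1, 2 and 3, against 9.54, 9.04 and 6.71 on the control arrays. The 3 differences were 0.79, 0.75 and 0.82, although the control level of number 3 was lower than that of the others. The mean of 0.79 ± 0.03 (SD, n = 3 pairs, 1.73-fold) had adjusted p = 0.119 with the replicate block and 0.0843 in the paired trended fit (limma). The sorafenib array was also higher in 3 of 3 pairs for CYP4F3 (0.75 ± 0.38), CYP4F12 (0.62 ± 0.37), CYP11A1, which begins steroid synthesis (0.54 ± 0.12), CYP2S1 (0.48 ± 0.45), GSTM4 (0.44 ± 0.14), SLCO1A2 (0.40 ± 0.61) and ABCB9 (0.38 ± 0.31). None of these passed the test. For SLCO1A2 the difference was 1.10 on number 1 and at most 0.07 on the other numbers, where it was not detected. CYP2S1 was not detected on either array numbered 2, and CYP4F3 was detected on only 3 of the 6 arrays.

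**Figure D4:**
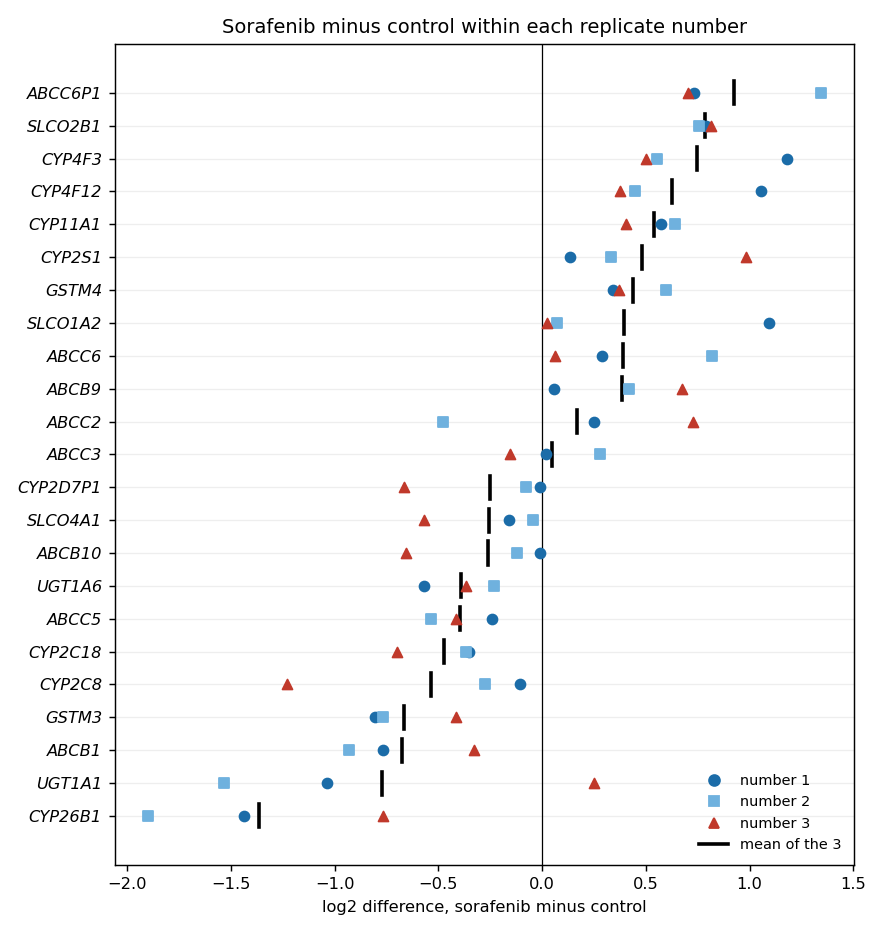
Log2 difference between the sorafenib and the control array of each replicate number (horizontal axis, 1 point per pair) for 23 named members, ordered by their mean, which is drawn as a vertical bar. The 3 points of SLCO2B1 lie within 0.75 to 0.82, while those of UGT1A1 and ABCC2 lie on both sides of 0.

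Genes known for handling sorafenib or bilirubin were read whatever their values. UGT1A1 had 7.17, 5.93 and 5.19 on the sorafenib arrays numbered 1, 2 and 3, against 8.20, 7.46 and 4.95 on the control arrays. The difference on number 1, where both arrays were detected, was -1.04. On number 2 the sorafenib array was not detected, and the signal was at least 2.70-fold lower than on the control array. On number 3 neither array was detected, so that the mean of -0.77 ± 0.92 (SD, n = 3 pairs) rests on 3 undetected signals. ABCC2 had differences of 0.25, -0.48 and 0.73 and ABCC3 of 0.02, 0.28 and -0.16, so that neither kept a direction over the pairs. CYP3A4 and UGT1A9, the enzymes known to metabolise sorafenib, and the transporters ABCG2, SLCO1B1 and SLCO1B3 were not detected on any array.

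In some members the pairs of numbers 1 and 2 went one way and the pair of number 3 did not follow. SULT2A1 differed by 1.17 and 0.52 on numbers 1 and 2 and by -0.47 on number 3, where it was not detected. CYP27A1 differed by 0.97 and 0.94 on numbers 1 and 2 and by -0.07 on number 3. SULT1C2, which was detected on all 6 arrays, differed by 1.10, 0.84 and -0.04. With the arrays numbered 3 left out and the replicate block kept, their adjusted p was 0.13, 0.0853 and 0.0862 (limma), and 0 members were called, beside 0.0652% of all symbols. At an unadjusted p under 0.05 that fit took 15 of the 75 members and 18.4% of all symbols. The choice of these 3 genes was made from their values, and whether the response differed between numbers was not tested, since each number holds 1 array per group. GSTP1 and SLCO2A1, with gaps between numbers of -7.19 and -5.41, had mean differences of only 0.07 and 0.03 between sorafenib and control.

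No gene of the other lists (regulators, other phase I and phase II enzymes, other transporters) was called by sorafenib in the fit with the group alone, with the block, or in the paired trended fit.

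The 60 members that did not pass the detection filter had mean log2 signals of 4.82 to 9.89. Of these, 52 were detected on 0 arrays and 8 on 1, and 58 lay at or below 6.11. The remaining 2, SULT1A1 (mean 9.89) and CYP20A1 (mean 8.20), were bright. Their detection p-values, like those of 31 of the 75 detected members, were not whole multiples of 1/770 on every array and so were not those of a single probe. The 13 members detected on exactly 2 arrays, just inside the rule, had mean signals of 5.36 to 8.25, and the 8 detected on 1 array, just outside it, had 5.38 to 6.11.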

How the data were processed

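The authors deposited signal intensities, called non-normalized, in 1 table per group, with 1 value per gene symbol and array; the sources do not say how probes were combined. Beside every intensity stands a detection p-value, per the file headers. A further deposited table of log2 values was not used, since its sorafenib columns were filled for only 59 symbols. RNA was labelled with biotin for Illumina Expression BeadChips, per the labels' protocols; scanner software is not given in the sources used here.

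The 2 tables were joined by symbol and processed in R 4.3.3 (limma 3.58.1). The neqc method corrected the background (offset 16), with its mean and SD estimated from the 27247 symbols whose detection p-values were whole multiples of 1/770 on all arrays (tolerance 0.001). Quantile normalization between arrays and log2 followed. Tests covered the 16870 of 34690 symbols detected (p below 0.05) on 2 or more arrays. All tests were limma linear models with empirical Bayes moderation, two-sided, adjusted by Benjamini-Hochberg over all symbols tested. The sorafenib comparison held the group alone. Deviations from the group means correlated at 0.905, 0.803 and 0.930 between same-numbered arrays. The gap of number 3 enters the deviations of every number, and differently numbered arrays were not compared this way. This check therefore cannot show that the numbers pair the samples. Over all symbols tested, r between the signals of same-numbered arrays was 0.970 to 0.986. It was 0.952 between sorafenib 1 and control 2 and 0.938 between sorafenib 2 and control 1. The fit with the number as a block is given too. Levels between numbers were fitted with treatment as a term. The number of arrays limits the precision.

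The members, lists, contrasts and named genes were chosen with earlier results of these data known. Named genes were the 10 members with the widest mean sorafenib difference in each direction among those with 1 sign in all 3 pairs, 9 genes known for handling sorafenib or bilirubin where detected, and the members called between numbers with the widest differences (up to 12 in each direction for number 3, up to 6 for number 2 against 1). A planned ranking of members by level was left out, since signals of different probes cannot be ranked. Some members are counted but not reported here by name. The scripts were tested on simulated data. Alternatives covered the background, offset, scaling, detection filter, variance trend, block, treatment term and leaving out each number.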

Additional observations from a re-analysis of the deposited data

How the results depend on the processing

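The sorafenib comparison called 0 members and 0 genes when any 1 number was left out (lowest and highest 0), with another background, scaling or detection filter, and with the replicate block. Except with the block, the differences between numbers stayed in the error of these fits, so that their lack of calls carries little weight. The replicate block with trend and robust estimation called 1 member and 100 genes, and the replicate block with both arrays numbered 3 left out called 0 members and 11 genes. The members' median sorafenib difference was -0.017 to 0.040 when a number was left out and -0.017 with the block and without number 3. ABCC3 turned to -0.041 with the background from all symbols and to -0.069 without replicate 2 (0.15 without replicate 3), and ABCC2 turned to -0.11 without replicate 3, with or without the block (0.49 without replicate 2). Between numbers, the fit over all numbers called 2666 to 9162 genes and 15 to 56 members when a number was left out, the lowest without number 3, where only numbers 1 and 2 remain to be compared. With the background from all symbols it called 3712 genes and 24 members, with 17 members higher and 17 lower on number 3 and 1 member called between numbers 2 and 1. Calls between numbers 2 and 1 also changed to 43 members with median scaling, 3 with no treatment term and 15 without replicate 3. The cause of these changes was not tested. The 2 arrays per number and signals near background limit all results on weakly expressed members.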
